A study of Mus musculus with 5 samples.

Results

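A set of 9 genes with products that bind or organise actin was followed across mouse NT2.5 cells and their bone and liver sub-lines. They are Marcks, Marcksl1, Lcp1, Pls3, Kank1, Kank4, Fhod1, Fhod3 and Fscn1, 9 of the 18193 genes named on the array, and they are represented by 23 of its 45101 probe sets. Marcks, Lcp1, Kank4 and Fhod3 were selected on the intensities described here, as genes that mark a single line or passage. Marcksl1, Pls3, Kank1 and Fhod1 were added as their family relatives. Fscn1 has no relative among them, and the ground for adding it is not stated. All levels and differences of these genes are therefore a description, and only the 4 relatives were tested.

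NT2.5 is a cell line from mammary tumours of mice with a neu (rat Erbb2) transgene. The 5 single-colour expression arrays held 1 RNA sample each, and no sample was measured more than once. The labels give the parental culture, called wild type, a preference for bone, liver and lung as metastatic sites. The bone sub-line was sampled at passages 3 (early) and 6 (final), and the liver sub-line at passages 1 (early) and 3 (final). The labels give each sub-line a preference for the site it is named after. They name no treatment, host animal, age or strain for any sample, and they do not say whether the passages of a sub-line come from 1 lineage. The epithelial genes Krt8, Krt18, Epcam and Cdh1 were bright on all 5 arrays, with intensities from 3281.5 to 7880.4, whereas Krt19 lay between 1.5 and 3.3.

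MARCKS and its smaller relative MARCKS-like 1 are membrane-bound proteins that bind phosphoinositides, calmodulin and actin filaments and leave the membrane when protein kinase C phosphorylates them. Plastins bundle actin filaments into tight parallel arrays. L-plastin, the product of Lcp1, is the form of leukocytes and is also found in many carcinoma lines, while T-plastin, from Pls3, is the form of most solid tissues. KANK proteins bind talin at the rim of focal adhesions and link adhesions to the cortical microtubule machinery. FHOD proteins are formins that bind and bundle actin filaments. FHOD3 is best known from the sarcomeres of heart muscle. Fascin, from Fscn1, bundles filaments in filopodia and invadopodia.

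**Figure D1:**
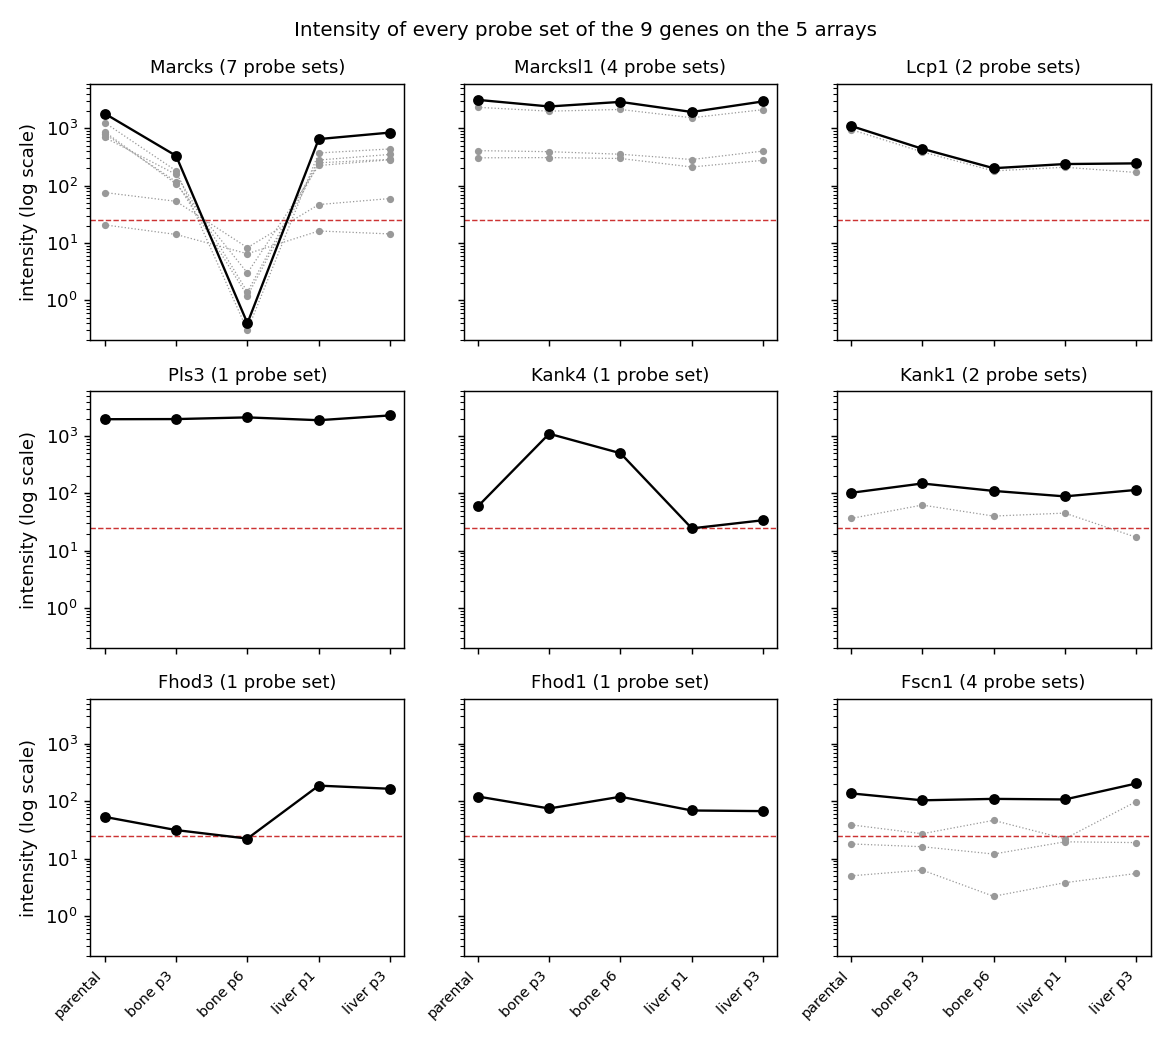
Intensity on a log scale of all 23 probe sets of the 9 genes on the parental, bone (p3, p6) and liver (p1, p3) arrays. Black marks the probe set that stands for the gene and grey the others, lines only join the values of 1 probe set, and the dashed line is the median of all values, 25.1; Marcks drops to 0.4 in bone passage 6, Lcp1 is highest in the parental cells, Kank4 in the bone sub-line and Fhod3 in the liver sub-line.

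The 250 bases before the annotated starts of Kank4 and Kank1 and of both starts of Lcp1 are shown. Kank4 and Lcp1 differed most between lines among the members for which a sequence was taken, and Kank1 is the relative of Kank4. They are RefSeq sequences of assembly GRCm38.p6, written 5′ to 3′ on the strand of the gene, with every CpG dinucleotide in capitals. Such sequences were taken for 7 of the 9 genes, in 10 windows, and not for Marcks or Fhod3.
Kank4, chr4:98817538-98817787, minus strand: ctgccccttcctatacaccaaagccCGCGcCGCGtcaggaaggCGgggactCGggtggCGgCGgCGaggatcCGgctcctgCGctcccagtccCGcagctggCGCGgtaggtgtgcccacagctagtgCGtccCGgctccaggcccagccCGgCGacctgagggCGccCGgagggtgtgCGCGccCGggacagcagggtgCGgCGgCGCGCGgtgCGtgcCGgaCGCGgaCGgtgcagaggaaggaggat
Kank1, chr19:25236725-25236974, plus strand: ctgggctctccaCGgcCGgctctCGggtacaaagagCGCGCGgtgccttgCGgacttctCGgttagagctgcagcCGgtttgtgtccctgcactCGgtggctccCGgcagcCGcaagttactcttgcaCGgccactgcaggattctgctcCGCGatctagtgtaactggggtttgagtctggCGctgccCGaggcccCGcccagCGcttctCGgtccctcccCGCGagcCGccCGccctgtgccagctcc
Lcp1, first start, chr14:75130873-75131122, plus strand: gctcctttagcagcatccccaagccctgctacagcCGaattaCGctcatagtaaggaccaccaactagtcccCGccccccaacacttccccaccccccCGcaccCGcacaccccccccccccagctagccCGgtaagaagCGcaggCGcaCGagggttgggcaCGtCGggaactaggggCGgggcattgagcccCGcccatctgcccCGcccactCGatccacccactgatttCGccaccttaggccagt
Lcp1, second start, chr14:75136175-75136424, plus strand: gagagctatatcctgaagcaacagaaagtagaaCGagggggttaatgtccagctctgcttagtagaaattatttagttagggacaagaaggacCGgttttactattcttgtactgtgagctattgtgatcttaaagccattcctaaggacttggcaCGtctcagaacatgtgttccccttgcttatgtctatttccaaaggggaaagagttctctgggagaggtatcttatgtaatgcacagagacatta

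The Kank4 window held 33 CpG dinucleotides, and 4.03% of the 32851 windows of this length in the table held as many or more. The Kank1 window held 24, and the median over all windows was 6. The first Lcp1 start had 16 CpG dinucleotides before it and the second had 3. The CArG box, the motif of serum response factor, which drives many actin genes, occurred 0 times in the 10 windows of the members and in 1.47% of all windows. The sequence GGAATG, recognised by TEAD factors, was searched on both strands and was present in 4 of the 10 windows, those of the second Lcp1 start and of the 3 Pls3 starts, of which 2 overlap each other. It was present in 12.6% of all windows. A match is only a match of letters. The array does not tell which start was used, and methylation and factor binding were not measured.

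Marcks was lower in every sub-line array than in the parental cells and was at the bottom of the scale in the final bone passage. Its intensity was 1804.0 in parental cells, 331.6 and 0.4 at bone passages 3 and 6, and 648.3 and 841.4 at liver passages 1 and 3. In this probe set, which stands for the gene, the parental value was highest, the liver values came next, and bone passage 6 was lowest. The 3 lines did not overlap in it, and how often this held over all genes was not counted. On the scale of log2(intensity + 16), which understates the change of dim genes, the difference of bone passage 3 from parental cells was -2.39 for Marcks. It was -1.45 for liver passage 1 and -1.09 for liver passage 3. The sub-line values at bone passage 3, liver passage 1 and liver passage 3 were 5.24-fold, 2.74-fold and 2.12-fold lower on this scale. For bone passage 6 only a bound is given, with no 16 added and the median of all values, 25.1, as the lowest intensity. Marcks was at least 71.9-fold lower there than in parental cells and at least 13.2-fold lower than at bone passage 3. The log2 difference of bone from liver was -3.32 ± 1.27 (SE, n = 2 passages per sub-line), and leaving out bone passage 6 or 3 gave -1.12 or -5.52. With a pseudocount of 1 it was -5.10, so its size depends on how the near-zero value is treated.

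All 7 Marcks probe sets had their highest value in parental cells and their lowest in bone passage 6. The second brightest read 1254.1 in parental cells, 181.8 and 0.3 in the bone passages, and 371.6 and 435.7 in the liver passages. The remaining 5 lay between 1.2 and 8.3 in bone passage 6. In that array, 1.79% of all probe sets were as dim as or dimmer than 0.4. The Marcks probe set that was dimmest in parental cells did not pass the filter on low values, with 6.5 to 20.7 over the 5 arrays. The low value at bone passage 6 therefore did not rest on a single probe set, although the probe sets may share target sequence and were read from the same RNA. The order of bone passage 3 and liver was not the same in all. In 1 dimmer probe set that passed the filter, bone passage 3 read 53.3, between liver passages 1 and 3 at 46.8 and 59.6. Parental cells read 75.8 there, and these 3 arrays were 1.32-fold, 1.46-fold and 1.21-fold lower.

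Few genes that were bright on the other arrays were dim in bone passage 6. Among the 3844 genes at an intensity of 300 or more on all other arrays, Marcks was the 1 gene below 25.1 in bone passage 6. The same count was 0 for each of the other 4 arrays. With a minimum of 100 on the other arrays there were 5 such genes of 7428, namely Marcks, Chst1, Igfbp3, Nrp1 and Pygl. These minima were set after the values of Marcks were seen, and they describe the array without testing it.

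The genes on either side of Marcks did not share its drop. In the gene order of GRCm38.p6, the nearest tested neighbours are Hdac2, a histone deacetylase, and Lama4, a laminin chain. Hdac2 read 1434.3 in parental cells, 1040.3 and 1305.4 in the bone passages, and 1071.9 and 1121.0 in the liver passages. Lama4 read 450.5, then 328.0 and 225.9 in bone and 267.2 and 185.1 in liver. From bone passage 3 to passage 6, the 5 tested neighbours on each side had log2 differences from -0.91, for Tspyl4, to 0.55, for Fyn. Between Hdac2 and Lama4 lie 2 further measured genes that were dim on all arrays, 5930403N24Rik at 2.8 to 17.7 and Rfpl4b at 1.8 to 8.9. DNA copy number was not measured.

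**Figure D2:**
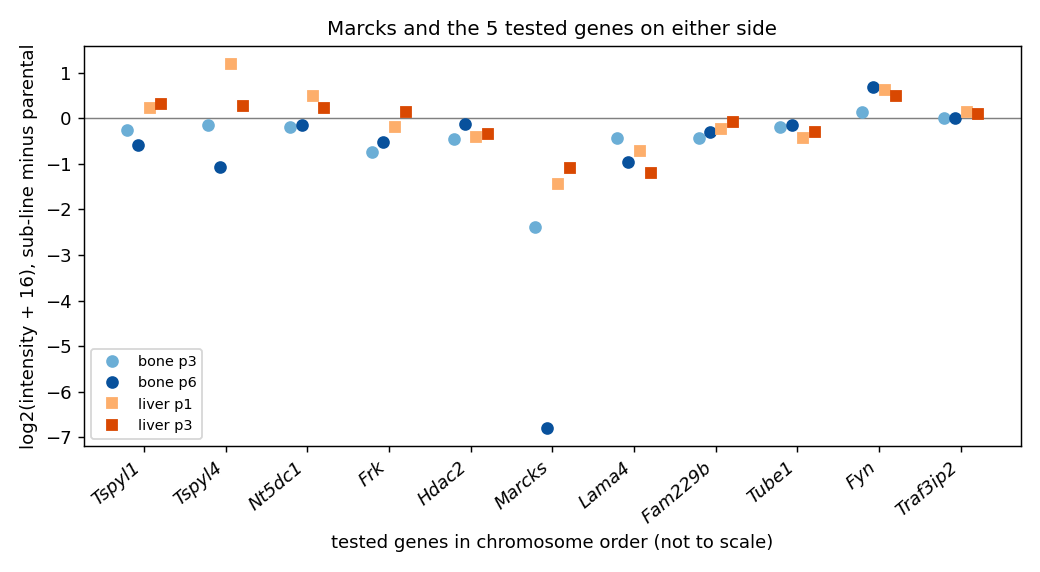
Difference in log2(intensity + 16) between each sub-line array and the parental array for Marcks and the 5 tested genes on either side of it, in chromosome order and not to scale. Each point is 1 array; Marcks in bone passage 6 lies at -6.79, a size set in part by the 16 added to its intensity of 0.4, while Tspyl4, its lowest neighbour on that array, lies at -1.06.

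Marcksl1 stayed bright on all arrays. Its main probe set read 3126.5 in parental cells, 2399.3 and 2883.5 in the bone passages, and 1922.7 and 2940.7 in the liver passages. Liver passage 1 was the lowest array in all 4 of its probe sets. In the main probe set the bone values lay within the range of the liver and parental ones. In 1 other, bone passage 3 was highest, at 308.2 against 305.5 in parental cells. The log2 difference was -0.25 ± 0.31 for bone against parental cells (limma adjusted p = 0.923; 95% interval -1.01 to 0.52). For liver against parental cells it was -0.39 ± 0.31 (limma adjusted p = 0.841; 95% interval -1.16 to 0.37). From bone passage 3 to passage 6 it was 0.26.

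Lcp1 was highest in parental cells and lower in every sub-line array. It read 1100.6 in parental cells, 439.4 and 201.4 at bone passages 3 and 6, and 237.9 and 244.4 at liver passages 1 and 3. Bone passage 3 stood between the parental value and the other 3 arrays, which lay close together. Relative to parental cells, Lcp1 was 2.45-fold and 5.14-fold lower in the bone passages and 4.4-fold and 4.29-fold lower in the liver passages. The liver values lay within the range of the bone passages, so Lcp1 did not separate the sub-lines. The bone minus liver log2 difference was 0.29 ± 0.35 and turned to -0.24 without bone passage 3. The second probe set read 951.0, then 386.9 and 180.5 in bone and 209.2 and 169.7 in liver.

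Because Lcp1 is the plastin of leukocytes, 16 leukocyte marker genes were set beside it. Their summed intensity was 432 in parental cells, 566 and 491 in bone passages 3 and 6, and 991 and 853 in liver passages 1 and 3. The sum was lowest in the parental cells, where Lcp1 was highest. At liver passage 1, 5 of the 14 tested markers were at least 2-fold above parental cells and 0 were 2-fold below. The median log2 difference was 0.85, and Lyz2 rose most, from 25.5 to 140.4. Over all 12609 genes, 243 were 2-fold higher and 328 lower on that array. On the other sub-line arrays the markers moved less alike, with medians of 0.13 and -0.10 at bone passages 3 and 6 and 0.18 at liver passage 3. Csf1r, Cd68 and Itgb2 were lowest in parental cells, at 67.6, 52.1 and 50.2. Coro1a read 28.6 in parental cells, 13.2 and 18.5 in bone, and 35.1 and 15.9 in liver. At or above 25.1 were 9 of the 16 markers in parental cells, 8 and 6 in the bone passages, and 14 and 8 in the liver passages. By this count parental cells were not lowest, and a part of leukocytes in the Lcp1 levels was not tested. The pan-leukocyte gene Ptprc read 8.6 in parental cells and 25.7 in liver passage 1, its highest value, and Itgam and Hcls1 did not pass the filter on any array. Fewer cells of a type and less RNA per cell cannot be told apart in RNA of whole cultures.

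**Figure D3:**
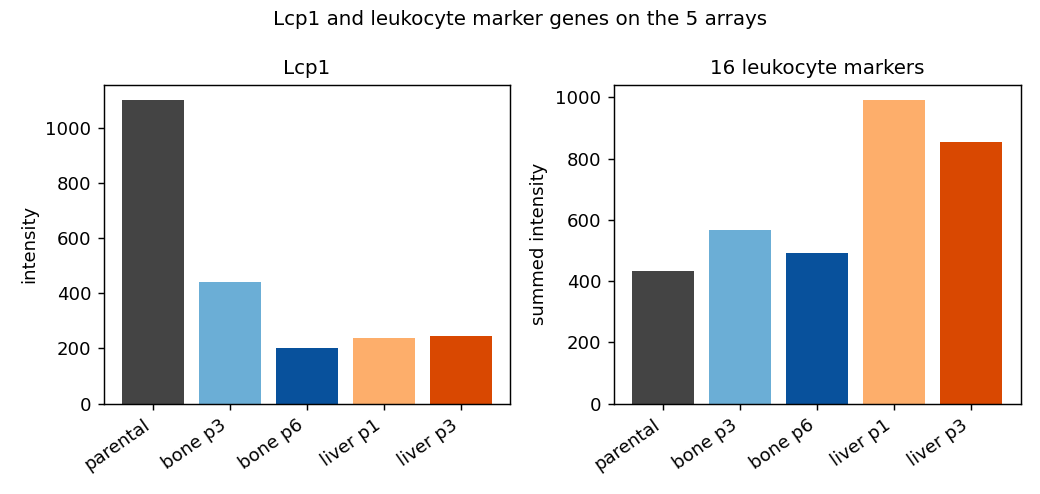
Intensity of Lcp1 (left) and summed intensity of 16 leukocyte marker genes (right) on the 5 arrays, with 1 bar per array and both axes starting at 0. Lcp1 is highest in parental cells at 1100.6, where the marker sum is lowest at 432; the marker sum is highest in liver passage 1 at 991.

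Pls3, the relative of Lcp1, had the narrowest range of the 9 genes on the log2 scale. It read 1965.8 in parental cells, 1976.9 and 2116.2 in bone, and 1889.4 and 2289.5 in liver. The bone minus liver log2 difference was -0.024 ± 0.19 (limma adjusted p = 0.967; 95% interval -0.49 to 0.44). Against parental cells it was 0.057 ± 0.24 for bone (limma adjusted p = 0.978) and 0.081 ± 0.24 for liver (limma adjusted p = 0.967). Its single probe set gave no second reading.

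Kank4 marked the bone sub-line. It read 1097.4 and 502.0 at bone passages 3 and 6, against 59.3 in parental cells and 24.6 and 34.1 at liver passages 1 and 3. The bone values stood apart from all other arrays, and passage 3 was higher than passage 6. How many of all genes set the bone arrays apart in this way was not counted. Kank4 was 14.8-fold higher at bone passage 3 and 6.88-fold higher at passage 6 than in parental cells. Liver passage 1 read below the median of all values. With 25.1 as the lowest intensity and no 16 added, Kank4 was at least 2.36-fold lower there than in parental cells. On the scale with 16 added, used for the other folds here, it was 1.85-fold lower. At liver passage 3 Kank4 was 1.5-fold lower. At passage 3, which was sampled in both sub-lines, bone was 22.2-fold higher than liver. The level at bone passage 6 was 2.15-fold lower than at passage 3. Kank4 has a single probe set, so there was no second reading of these levels. Usp1 and Patj, the nearest tested genes in the gene order, read 782.5 to 1022.2 and 216.2 to 273.4 over the 5 arrays.

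The main probe set of Kank1 read 102.4 in parental cells, 149.0 and 110.6 in bone, and 88.8 and 115.1 in liver. Bone and liver values overlapped, and the log2 difference of 0.30 ± 0.22 did not pass (limma adjusted p = 0.580; 95% interval -0.24 to 0.85). A dimmer second probe set was also highest at bone passage 3, with 62.7, and read 36.6 in parental cells, 40.3 at bone passage 6 and 45.4 and 17.2 in the liver passages. The probe sets disagreed on liver passage 3, which was lowest in the second and not in the first. Bone passage 3 was 2.37-fold above liver passage 3 in the second probe set, on the scale with 16 added, and 1.26-fold above it in the first. A further KANK gene, Kank2, named after its values were seen, read 116.5 in parental cells, 92.5 and 89.4 in bone, and 84.4 and 185.8 in liver.

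Fhod3 had the opposite order of lines. It read 186.9 and 164.7 at liver passages 1 and 3, 53.3 in parental cells, and 31.4 and 22.3 at bone passages 3 and 6. The 3 lines did not overlap, but Fhod3 has a single probe set and no second reading. The share of all genes without overlap between lines was not counted, so nothing is read from it. In the liver passages it was 2.93-fold and 2.61-fold higher than in parental cells, and at bone passage 3 it was 1.46-fold lower. Bone passage 6 read below the median of all values. With 25.1 as the lowest intensity and no 16 added, Fhod3 was at least 2.12-fold lower there than in parental cells. On the scale with 16 added, used for the other folds here, it was 1.81-fold lower. At the shared passage 3, liver was 3.81-fold higher than bone. Fhod3 is expressed in striated muscle, and of 8 heart and striated muscle markers 3 were at or above 25.1 at bone passage 3 and 2 on each of the other arrays. Their summed intensity was 1630 and 2740 in bone, 3070 and 3040 in liver and 2440 in parental cells, and its part in the Fhod3 levels was not tested. Nearly all of this sum was 1 gene, Tnnt2, at 1525.6 and 2673.5 in bone, 2975.9 and 2964.4 in liver and 2355.4 in parental cells. Of the 8 markers, 3 passed the filter on low values, and Myh6, Myh7, Actn2 and Tnni3 read at most 12.3 on any array.

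Fhod1 did not follow Fhod3. It read 120.8 in parental cells, 74.7 and 119.7 at bone passages 3 and 6, and 68.9 and 67.2 at liver passages 1 and 3. The liver values were the lowest, while the bone passages spanned most of the range. For liver against parental cells the log2 difference was -0.70 ± 0.29 and did not pass (limma adjusted p = 0.672; 95% interval -1.42 to 0.011). For bone against liver it was 0.40 ± 0.24 (limma adjusted p = 0.5).

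Fscn1 was highest at liver passage 3. Its main probe set read 137.0 in parental cells, 103.7 and 109.8 in bone, and 107.3 and 203.6 in liver. A second probe set read 38.8, then 27.1 and 46.4 in bone, and 22.2 and 98.7 in liver, so both placed liver passage 3 highest. The other 2 probe sets stayed below the filter, at 2.2 to 19.6. On the log2 scale liver passage 3 was 0.83 above liver passage 1 and 0.52 above parental cells.

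**Figure D4:**
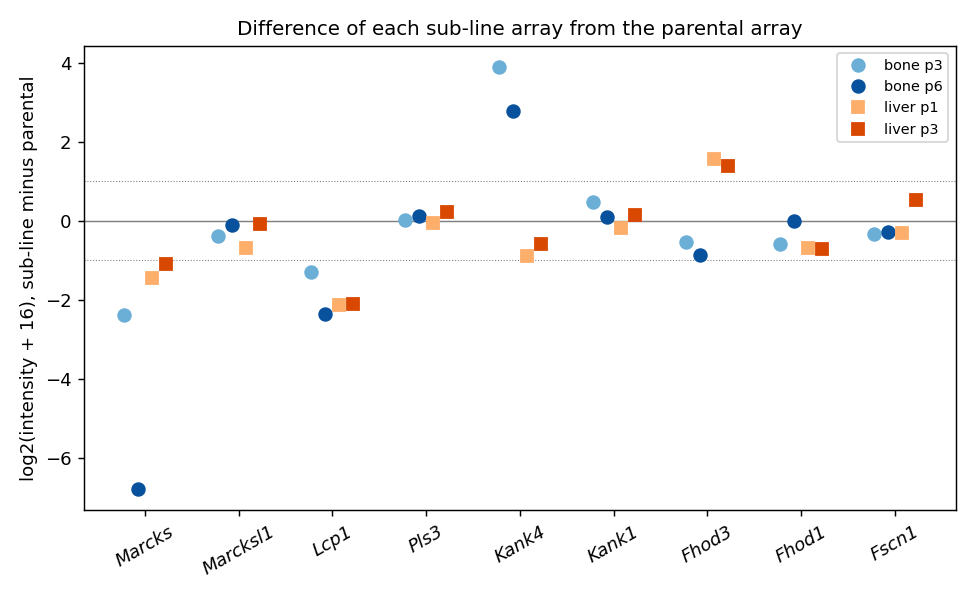
Difference in log2(intensity + 16) between each sub-line array and the parental array for the 9 genes, with 1 point per array, circles for bone and squares for liver. Dotted lines mark a 2-fold change in either direction; Marcks and Lcp1 lie below the lower line on all 4 arrays, Kank4 lies above the upper line in bone and Fhod3 in liver.

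Counting members at least 2-fold apart gave 3 of 9 in each comparison with the parental array. These were Marcks and Lcp1, lower on all 4 sub-line arrays, with Kank4 higher on both bone arrays and Fhod3 higher on both liver arrays. Over all 12609 genes, 4.36% were 2-fold apart at bone passage 3, 4.64% at bone passage 6, 4.53% at liver passage 1 and 3.89% at liver passage 3. All 4 comparisons share the parental array. Between bone passages 6 and 3, Marcks, Lcp1 and Kank4 were lower at passage 6 (3 of 9 members, and 2.43% of all genes). Between liver passages 3 and 1 it was 0 of 9 members, and 2.81% of all genes. At the shared passage 3, Kank4 was higher in bone and Marcks and Fhod3 were lower (3 of 9 members, and 4.59% of all genes). Since the leading members were chosen on these values, nothing is read from their share.

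Among the 4 relatives, limma called 0 in each of the 3 comparisons of lines, with 0 at an unadjusted p under 0.05. Adjusted p ranged from 0.5 to 0.967 for bone against liver, 0.880 to 0.978 for bone against parental cells and 0.672 to 0.996 for liver against parental cells. Passages stood in for replicates, with the single parental sample taken to have their variance. These p-values measure only the spread between passages of a sub-line, which may be technical.

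The 4 leading members were each set beside the 5 genes with the smallest Euclidean distance between centred log2 profiles over the 5 arrays. Nearest to Lcp1 were Tesc (distance 0.34), Prelp (0.38), Foxh1 (0.5), Tnni1 (0.57) and Ehf (0.64). Prelp, for example, read 174.7 in parental cells, 58.8 and 26.2 in bone, and 19.8 and 21.3 in liver. Nearest to Fhod3 were Chst2 (0.38), C1s1 (0.52), Pak3 (0.68) and Antxr1 (0.72), with 1 further gene known only by a RIKEN name. Chst2 read 126.6 and 150.3 in liver, 41.6 in parental cells, and 31.3 and 16 in bone. Kank4 had less close neighbours, Slc15a3 (1.3), Nqo1 (1.79), Muc15 (1.96), Abcg2 (2.11) and Hpse2 (2.12). Muc15 read 1039.3 and 275.2 in bone, 60.2 in parental cells, and 113.0 and 83.6 in liver. Marcks had the most distant ones, Pygl (2.40), Ppp2r2c (2.51), Ces5a (2.65), Nrp1 (2.76) and Igfbp3 (2.79). Ppp2r2c read 231.1 in parental cells, 31.0 and 2.4 in bone, and 181.2 and 180.1 in liver. The profiles were centred but not scaled, so these distances grow with the size of a gene's differences. Pearson correlations with the nearest gene were 0.986 for Lcp1, 0.986 for Fhod3, 0.953 for Kank4 and 0.938 for Marcks. With 5 arrays, such likeness is a description only.

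None of the other actin-linked genes passed the test between lines. The lists covered bundling proteins, formins, the Arp2/3 complex and its activators, filament turnover, KANK partners, membrane linkers, the kinases that act on MARCKS, and actins with targets of serum response factor. They held 120 genes besides the members, of which 110 were measured and 101 tested. For bone against liver limma called 0 of 101, against 0.19% of all genes, with 18 at an unadjusted p under 0.05 (1775 of 12609 over all genes). For bone against parental cells it called 0, against 0.135%, with 8 at an unadjusted p under 0.05 (1030 over all genes). For liver against parental cells it called 0, against 0.0159%, with 9 at an unadjusted p under 0.05 (945 over all genes). The medians of the 101 log2 differences were -0.016, -0.10 and -0.12, and those of all genes -0.023, -0.019 and 0.014.

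For a few of these genes, each array of one line differed at least 2-fold from each array of another. The share of all genes that meet this rule was not counted, so nothing is read from their number. Palld, the actin crosslinker palladin, read 1233.5 and 1274.8 in bone, 1144.5 in parental cells, and 482.0 and 315.0 in liver. Its bone minus liver log2 difference was 1.65 ± 0.24 and did not pass (limma adjusted p = 0.0842). It passed with a pseudocount of 32 (limma adjusted p = 0.0449), with median centring (0.0498) and with the stage as a block (0.0269). Wasf1, the WAVE1 activator of Arp2/3, read 314.2 in parental cells, 59.4 and 92.5 in bone, and 96.9 and 63.5 in liver. Its log2 differences from parental cells were -1.87 ± 0.33 for bone and -1.80 ± 0.33 for liver (limma adjusted p = 0.159 and 0.221). Fhl1, a LIM-domain gene, read 236.5 in parental cells, 63.9 and 17.8 in bone, and 68.6 and 65.2 in liver. Like Marcks and Lcp1, Wasf1 and Fhl1 had their highest value in the parental array, and how often this held over all genes was not counted.

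Between bone passages 3 and 6, 3 of the 101 genes were at least 2-fold lower at passage 6 and 0 were higher, in the same direction as Marcks, Lcp1 and Kank4. They were Fhl1, Limch1 (152.9 to 19.5) and the adducin gene Add3 (98.7 to 19.4). Over all genes, 261 were lower and 45 higher at passage 6. The median intensity of that array was 21.9, against 24.6 to 26.4 on the other 4. Limch1 and Add3 were chosen after their values were seen. Between liver passages 1 and 3, 1 of the 101 was 2-fold apart, Kank2, which was higher at passage 3 (2.81% of all genes were 2-fold apart). At the shared passage 3, 3 were higher and 5 lower in bone than in liver, and over all genes 282 were higher and 297 lower, or 4.59% in all.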

How the data were processed

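Each array came as 1 linear intensity for every probe set, as deposited by the authors. RMA is named in the submitters' processing notes, but the intensities lack the log2 scale of RMA. Their 2% trimmed mean was 150.0 on every array, and the labels and notes give no other step. The platform annotation named 34958 probe sets by 1 gene. A probe set was kept if its highest intensity reached the median of all values, 25.1. This kept 20 of the members' 23 probe sets. The one with the highest mean log2(intensity + 16) stood for its gene.

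Lines were compared with limma 3.58.1 in R 4.3.3 over all 5 arrays, with 2 residual and 4.20 prior degrees of freedom and Benjamini-Hochberg adjustment over 12609 genes, called at an adjusted p under 0.05. Single pairs of arrays have no test. The file gives no detection calls. The number of arrays limits precision.

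Members, lists and naming rule were chosen with earlier results of these data known. The rule named all 9 members, list genes called or 2-fold apart in every pair of arrays of 2 lines (up to 4 a list), and the 5 nearest profiles of each leading member. Markers of fibroblasts, endothelium, osteoblasts, hepatocytes and smooth muscle were also listed. Alternatives were no filter, pseudocounts of 1 and 32, median centring, quantile normalization, averaged probe sets, the stage as a block, each sub-line array left out, and a 3-fold threshold.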

Additional observations from a re-analysis of the deposited data

Results flagged for a closer look

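Kank4 and Fhod3 lay on opposite sides of the parental array in the bone and liver sub-lines, at both passages of each. Kank4 was higher than parental in bone and lower in liver, with a mean log2 difference of bone from liver of 4.07 with 16 added to each intensity. The liver readings were dim, and the difference was 4.63 with a pseudocount of 1 and 3.67 with 32. Fhod3 was lower than parental in bone and higher in liver, with a mean log2 difference of bone from liver of -2.17, or -2.68 and -1.82 with pseudocounts of 1 and 32. Both genes were chosen on these values, so the difference was not tested here, and each rests on a single probe set.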

How the results depend on the processing

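Of 252 recomputed log2 differences of members, 226 moved by less than the spread between passages and 8 changed sign. Of the 8, 7 belonged to relatives or Fscn1 and 1 to Lcp1. None of the 111 with a main size of at least 0.5 changed sign. Some of the 252 could not move by design, so these counts overstate how stable the values were. Leaving out a liver array cannot change bone against parental cells, nor a bone array liver against parental cells. Averaging cannot change a gene with 1 kept probe set, and the stage block left bone against liver unchanged. For bone against liver, the count of called actin list genes rose from 0 to 1 with a pseudocount of 32, with median centring and with the stage as a replicate block (Palld each time). With 1 array left out it ranged from 0 to 1, where the 1 was Add3 without bone passage 3. For bone against parental cells the range was also 0 to 1, where the 1 was Fhl1 without bone passage 3. For liver against parental cells the count was 0 in all alternatives, with 7 to 11 genes at an unadjusted p under 0.05 by limma. A pseudocount of 1 raised the count of list genes 2-fold apart between bone passages from 3 to 6. Between liver passages it went from 1 to 0 with a pseudocount of 32, quantile normalization, averaged probe sets or a 3-fold threshold. A 3-fold threshold lowered it from 8 to 2 at the shared passage 3. The early and final stages come from the design text and do not pair the samples. The count of all genes called for bone against liver was 24, and was 0 with no filter (limma, 2154 at an unadjusted p under 0.05), with a pseudocount of 1 (1580), and without either liver passage (1325 and 2020). It was 161 with the stage as a replicate block, 75 without bone passage 3, 54 with median centring and with a pseudocount of 32, 53 without bone passage 6, 26 with quantile normalization and 15 with averaged probe sets. The count of members 2-fold apart, 3 in each comparison with parental cells and between bone passages, was 1 at the 3-fold threshold in both liver comparisons and between bone passages. At that threshold it was 2 at bone passage 3, and median centring gave 2 between bone passages. Averaged probe sets raised it from 0 to 1 between liver passages and from 3 to 4 at the shared passage 3. The cause was not tested. Readings near 25.1 and below, such as Marcks in bone passage 6, leave the size of a difference uncertain.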

Other observations

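Of 6 measured hepatocyte markers, 0 reached 25.1 on any array, and their summed intensity was 28.1 to 55.3. The sum of 8 fibroblast markers was 148 to 251, of 7 endothelial markers 136 to 314, and of 8 smooth muscle and myofibroblast markers 497 to 698, most of it Smtn at 336.1 to 532.5. Among 8 heart and striated muscle markers, Tnnt2 was bright on every array, at 1525.6 to 2975.9. Of the 4 measured osteoblast markers, 2 or 3 reached 25.1. Their sum was 533 and 453 in bone, 220 and 195 in liver and 555 in parental cells, and most of it was Alpl, at 444.9 and 395.2 in bone, 142.6 and 108.1 in liver and 470.3 in parental cells. Among the leukocyte markers, Csf1r read 168.7 and 220.0 and Cd68 173.1 and 172.0 in the liver passages, against 67.6 and 52.1 in parental cells. Fcgr3 read 30.4 and 19.7 in liver and 1.1 to 2.4 on the other arrays. Others were lower at liver passage 3 than in parental cells, with Adgre1 at 27.6 against 31.8, Coro1a at 15.9 against 28.6 and Ptprc at 6.1 against 8.6.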
